A study of Mus musculus and Bos taurus with 6 samples.

Results

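The 5 microRNA (miRNA) genes described here, miR-205, miR-31, miR-203, miR-184 and miR-375, are known from epithelial tissues and were followed through small RNA libraries of the lactating mammary gland. They were chosen by name and not by a cut on their counts, with earlier results of these data known. Every line with a mouse or bovine prefix whose name without its arm was one of the 5 was kept, which gave 13 of the 3289 lines listed, 9 of 1750 for mouse and 4 of 1539 for bovine. Total RNA was sequenced from the abdominal glands of 2 primiparous FVB/N mice at day 12 of lactation (mouse, 2 libraries), after removal of the lymph node. RNA that came down with Argonaute 2, the protein that holds a mature miRNA in the silencing complex, was sequenced from glands of the same strain and day, using a monoclonal antibody to EIF2C2 (AGO2, 2 libraries). The AGO2 libraries came from 2 animals, and the study does not say whether these were the mice of the total RNA libraries. Bovine RNA came from udder biopsies of multiparous Holstein cows in mid-lactation, all on a low forage diet (bovine, 2 libraries, each a pool of 2 cows, 4 cows in all). Mouse and AGO2 RNA were isolated with another kit than bovine RNA. Species, kit, pooling, parity, sampling by biopsy, diet and the list used for counting cannot be told apart in any comparison of bovine with mouse.

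A miRNA gene is transcribed as a longer RNA that folds into a hairpin. The hairpin is cut out by Drosha and Dicer, and 1 of its arms, the guide, is usually kept by an Argonaute protein while the other, the passenger, is discarded. The guide pairs with messenger RNA mainly through its seed, nucleotides 2 to 8 from the 5′ end. miR-205 is known from the basal layer of stratified and glandular epithelia and represses the E-cadherin repressors Zeb1 and Zeb2. miR-203 is known to limit the proliferation of epidermal progenitors through p63. miR-31 is abundant in skin and hair follicles and has many targets in cell migration. miR-375 is best known from pancreatic islets, where it restrains insulin secretion, and miR-184 from the cornea and lens.

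The mature sequences are given first, since the comparison of species rests on lines that were matched by name. In each sequence the capitals mark the seed. The guides of the 4 abundant genes and of miR-184 were listed in mouse as follows.
mmu-miR-205-5p: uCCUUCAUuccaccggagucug
mmu-miR-31-5p: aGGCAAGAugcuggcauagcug
mmu-miR-203-3p: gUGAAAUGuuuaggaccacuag
mmu-miR-375-3p: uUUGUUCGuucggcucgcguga
mmu-miR-184-3p: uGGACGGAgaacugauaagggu

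In bovine 4 lines were listed, which carry no arm in their names and were placed on an arm by the position that the lists give.
bta-miR-205: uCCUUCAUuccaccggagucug
bta-miR-31: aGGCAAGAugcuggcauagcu
bta-miR-375: uUUUGUUCguucggcucgcguga
bta-miR-184: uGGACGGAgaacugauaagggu

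The sequences of miR-205 and miR-184 were identical in the 2 species. Bovine miR-31 was listed 1 base shorter at its 3′ end with the same seed. Bovine miR-375 was listed with 1 more base at its 5′ end, so that its seed was UUUGUUC in place of the mouse seed UUGUUCG. The bovine letters also lie in the mouse hairpin, starting at its base 39, whereas the mouse arm starts at base 40. The shift is therefore in where the mature arm is annotated to begin, and the ends of the reads themselves were not analysed here. Bovine miR-203 was not analysed here.

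No 2 of the mouse members had the same seed. Outside the members, only the predicted line mmu-1_1498_mt had the seed of miR-203-3p, with 9 counts in AGO2 sample 2 and none in the other mouse and AGO2 libraries. The reads that carry each of these guide seeds were thus nearly all those of the member itself. With a shorter seed of nucleotides 2 to 7, the predicted line mmu-1_1220_mt joined miR-31-3p, with 71 and 51 counts in mouse and 0 and 18 in AGO2, and mmu-6_37012_st joined miR-375-3p with 4 counts in AGO2 sample 2. The shorter seed changed the reads per seed by more than the spread of 2 libraries only for miR-31-3p in mouse, where the mean became 8.08 RPM.

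The passenger arms were also listed, and the hairpins show both arms in place. The hairpin letters are those of RefSeq on GRCm38.p6, in which the capitals mark the 2 arms named in the mouse list.
Mir205: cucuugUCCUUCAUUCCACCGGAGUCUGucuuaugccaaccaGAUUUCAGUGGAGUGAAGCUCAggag
Mir31: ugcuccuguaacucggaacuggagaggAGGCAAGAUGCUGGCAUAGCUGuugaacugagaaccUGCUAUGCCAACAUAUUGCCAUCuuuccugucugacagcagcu
Mir375: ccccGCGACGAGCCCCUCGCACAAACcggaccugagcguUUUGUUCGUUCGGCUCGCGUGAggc

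The guide lies on the 5′ arm of Mir205 and Mir31 and on the 3′ arm of Mir375, as it does in Mir203 and Mir184. Of the 9 mouse lines, 8 had a mature entry in the RefSeq table and all 8 had the same letters. Mir205 lies at chr1:193507463-193507530 on the minus strand, within an exon of the long intergenic non-coding gene 4631405K08Rik. Mir31 lies at chr4:88910557-88910662 on the minus strand, within an exon of another such gene, AL805899.1. The other hairpins overlap no annotated gene but their own. Mir203 lies at chr12:112130880-112130955 on the plus strand, 3321 bp from Aspg, and Mir184 at chr9:89802260-89802328 on the minus strand, 63785 bp from Ankrd34c. Mir375 lies at chr1:74900658-74900721 on the minus strand, 1350 bp from Cfap65.

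The total count was 9299807 and 8391916 in mouse, samples 1 and 2, 3909166 and 5041406 in the AGO2 samples and to 9402483 and 10613807 in the bovine samples. Levels are given as RPM, the count of a line scaled to the total count of its library. A count of 0, taken to allow up to 3 counts, allowed 0.323 and 0.357 RPM in mouse, 0.767 and 0.595 RPM in AGO2 and 0.319 and 0.283 RPM in bovine. These limits and the intervals of shares cover counting error only. AGO2 sample 1 stood apart in breadth, with a count in 383 lines of known miRNA, against 615 in AGO2 sample 2 and 751 and 689 in mouse. In the study's own numbering, AGO2 sample 2 held many reads of low count, which it reports were later discarded.

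Of the guides, 4 were expressed well above the lower limit of 100 RPM in the mouse gland, and miR-184 was at the edge of detection. The members together held 0.581% and 0.328% of the counts of mouse samples 1 and 2. They held 0.243% and 0.182% of those of the AGO2 samples and 0.661% and 0.724% of those of the bovine samples. At least 100 RPM in a library were reached by 4 of the 9 members in mouse, 3 of 9 in AGO2 and 3 of 4 in bovine. Among the members, the passenger arms, which only the mouse list names, and miR-184 were at 6.88 RPM or less in every library.

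The level of miR-375-3p, the islet miRNA, was 2596 and 1065 RPM in mouse samples 1 and 2, 610 and 392 RPM in AGO2 and 1754 and 2198 RPM in bovine. It was the least repeatable of the guides in mouse, with a 2.44-fold difference between the samples, and its bovine values lay within the mouse range. The level of miR-203-3p was 1753 and 1157 RPM in mouse and 798 and 653 RPM in AGO2. Both AGO2 values were below both mouse values.

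For miR-205-5p the levels were 915 and 626 RPM in mouse, 942 and 717 RPM in AGO2 and 4096 and 4427 RPM in bovine. The mouse and AGO2 values overlapped, whereas both bovine values stood above all others. Its rank among all lines was 77 and 87 in mouse, 74 and 76 in AGO2 and 49 and 46 in bovine. miR-31-5p was at 539 and 426 RPM in mouse, 78.5 and 43.2 RPM in AGO2 and 761 and 616 RPM in bovine. It was the only abundant guide that fell under 100 RPM in AGO2, and the bovine values stood slightly above those of mouse.

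miR-184-3p had 1 count in each mouse library, or 0.108 and 0.119 RPM, and no count in the AGO2 and bovine libraries. All of these values lie under the limit that a count of 0 allows, and no difference between groups was detectable at this depth.

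**Figure D1:**
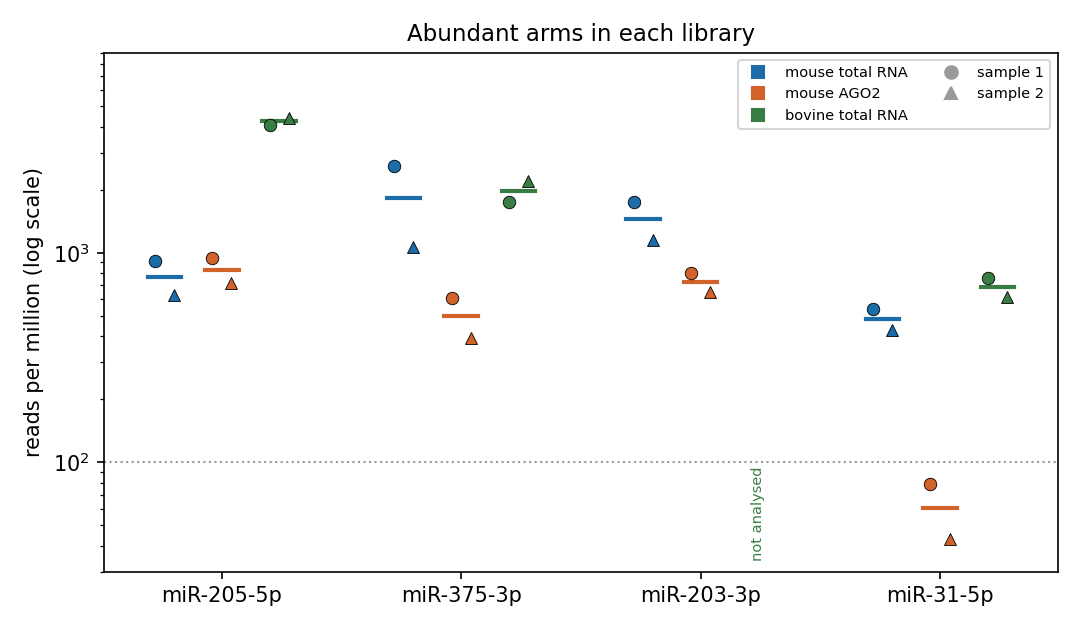
Level of the abundant arm of miR-205, miR-375, miR-203 and miR-31 in each library, in RPM on a log scale (circles, sample 1; triangles, sample 2; bars, mean of 2; dotted line, 100 RPM). miR-205-5p stands highest in bovine at 4096 and 4427 RPM, and miR-31-5p lowest in AGO2 at 78.5 and 43.2 RPM.

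Ordered by their means in mouse, miR-375-3p (1830 ± 1083 RPM, SD, n = 2) was followed by miR-203-3p (1455 ± 421 RPM), miR-205-5p (771 ± 204 RPM) and miR-31-5p (483 ± 79.4 RPM). The ranges of miR-375-3p and miR-203-3p overlapped and their order changed between the 2 mice. The other neighbours did not overlap. All 4 guides were higher in sample 1 than in sample 2, in mouse and in AGO2 alike. In AGO2 the order was miR-205-5p (830 ± 159 RPM), miR-203-3p (725 ± 103 RPM), miR-375-3p (501 ± 154 RPM) and miR-31-5p (60.9 ± 25.0 RPM) and was the same in both libraries. There the ranges of miR-205-5p and miR-203-3p overlapped, and the other neighbours were apart. In bovine miR-205 (4262 ± 234 RPM) led over miR-375 (1976 ± 314 RPM) and miR-31 (688 ± 102 RPM), with no overlap.

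The ratio of 2 members within a library does not depend on its total count. The ratio of miR-205-5p to miR-375-3p was 0.352 and 0.588 in mouse, 1.55 and 1.83 in AGO2 and 2.34 and 2.01 in bovine. miR-205-5p was thus the less abundant of the pair in the mouse gland and the more abundant one in the AGO2 and bovine libraries. Its ratio to miR-31-5p was 1.70 and 1.47 in mouse, 12 and 16.6 in AGO2 and 5.39 and 7.19 in bovine, with the 3 groups apart. The ratio of miR-205-5p to miR-203-3p was nearly the same in the 2 mice, at 0.522 and 0.541, and was 1.18 and 1.10 in AGO2. These ratios are described without a test, since 2 libraries against 2 cannot give a small permutation p.

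**Figure D2:**
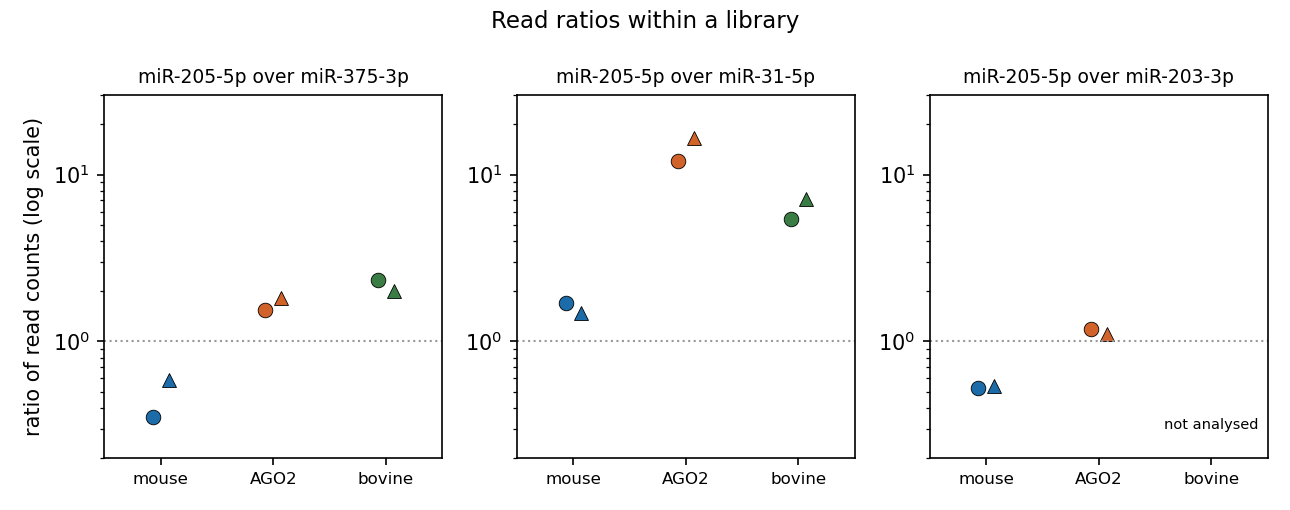
Ratio of the read counts of miR-205-5p to those of miR-375-3p, miR-31-5p and miR-203-3p in each library, on a log scale (circles, sample 1; triangles, sample 2; dotted line, equal counts). miR-205-5p lies below miR-375-3p and miR-203-3p in mouse and above them in AGO2, and its ratio to miR-31-5p rises to 12 and 16.6 in AGO2.

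The comparison of AGO2 with mouse total RNA asks which miRNA take a larger or smaller share of the reads in AGO2. Levels are relative within a library, so a fold change does not measure the amount held by AGO2. Of the 4 guides, miR-31-5p and miR-375-3p were lower in AGO2, and miR-203-3p and miR-205-5p did not pass the test. With edgeR's quasi-likelihood test over 299 miRNA and an adjusted p under 0.05, 37 miRNA (12.4%) were called lower and 46 (15.4%) higher, while 2 of the 4 members tested were called lower and 0 higher. At an unadjusted p under 0.05 the test gave 131 of the 299. The other 5 mouse members were too low to enter. The median log2 fold change was −1.28 for the 4 guides and −0.12 for all miRNA tested. The latter moved to −0.01 with the size factors of DESeq2 and to −0.27 with library totals alone.

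miR-31-5p was 7.19-fold lower in AGO2, with a log2 fold change of −2.85 ± 0.67 (SE) and an adjusted p of 0.00328 by edgeR. Only 21 of the 299 miRNA had a lower log2 fold change. The call was lost without AGO2 sample 2, where the log2 fold change was −2.51 and the adjusted p 0.0580, and it held in the other 9 alternatives. For miR-375-3p the log2 fold change was −1.71 ± 0.62 (SE), or 3.27-fold lower, with an adjusted p of 0.0481 by edgeR. This call was close to the threshold and was lost in 4 of 10 alternatives. Without mouse sample 1, in which it was most abundant, the log2 fold change was −0.99 and the adjusted p 0.432.

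For miR-203-3p the log2 fold change of AGO2 over mouse was −0.85 ± 0.59 (SE), with an adjusted p of 0.270. For miR-205-5p it was 0.26 ± 0.60 (SE), with an adjusted p of 0.743. The log2 fold change of miR-203-3p stayed below 0 and that of miR-205-5p above 0 in all 10 alternatives, none of which called them. The AGO2 and mouse values did not overlap for 3 of these 4 guides, all but miR-205-5p, as was so for 72.9% of all miRNA tested.

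The calls of other epithelial miRNA did not go in 1 direction in the same comparison. In a list of 8, made of the miR-200 family (miR-200a, miR-200b, miR-200c, miR-141 and miR-429), which maintains the epithelial state by repressing Zeb1 and Zeb2, and the miR-183 cluster (miR-183, miR-96 and miR-182), known from sensory epithelia, 2 were higher, 2 lower and 4 not called. The list had a median log2 fold change of −1.03, beside −0.12 for all miRNA tested and −1.28 for the 4 guides. The log2 fold change was 1.58 ± 0.27 (SE, adjusted p = 0.000388 by edgeR) for mmu-miR-200a-3p and −1.71 ± 0.57 (adjusted p = 0.0318) for mmu-miR-200c-3p. The summed level of the list was 162577 and 191332 RPM in mouse, 338613 and 368886 RPM in AGO2 and 74244 and 75804 RPM in bovine, and all 8 had counts in all 6 libraries. Most of the AGO2 sum was miR-200a-3p, at 267861 and 255991 RPM, beside 75449 and 118479 RPM in mouse. miR-141-3p was also higher in AGO2, with a log2 fold change of 1.34. The log2 fold changes of all others in the list were below 0.

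miRNA of other cells were present in every group, as whole glands and biopsies hold more than epithelium. In such bulk samples, fewer cells of a type and less of a miRNA per cell cannot be told apart. The summed level of 4 miRNA of fibroblasts and smooth muscle was 54217 and 70847 RPM in mouse, 36639 and 34223 RPM in AGO2 and 77751 and 63436 RPM in bovine. That of 2 endothelial miRNA was 24194 and 34265 RPM in mouse, 29280 and 28819 RPM in AGO2 and 62356 and 55972 RPM in bovine. That of 3 erythroid miRNA was 13343 and 6504 RPM, 32468 and 15527 RPM, and 1709 and 1098 RPM in the same order. The 5 leukocyte miRNA summed to 1263 and 2123 RPM in mouse, 2351 and 2971 RPM in AGO2 and 2553 and 3285 RPM in bovine. The 3 skeletal muscle miRNA summed to 163 and 213 RPM in mouse, 27.9 and 70.2 RPM in AGO2 and 727 and 782 RPM in bovine. Only 1 listed miRNA of these lists was at 0 in any library, miR-206-3p of skeletal muscle in mouse sample 2. The sums of the fibroblast and smooth muscle list and of skeletal muscle thus lay below both mouse values in AGO2, and those of the erythroid and leukocyte lists above them. A sum did not hold for each miRNA of its list. In the fibroblast and smooth muscle list, only miR-143-3p was below both mouse values in AGO2. It was at 49138.5 and 63991 RPM in mouse and 29361.8 and 29601.7 RPM in AGO2. The values of miR-145a-5p, miR-199a-3p and miR-214-3p overlapped between mouse and AGO2. miR-133a-3p of skeletal muscle was at 3.33 and 5.60 RPM in mouse and 16.4 and 35.3 RPM in AGO2. miR-155-5p of leukocytes was at 30.5 and 46.1 RPM in mouse and 14.8 and 8.33 RPM in AGO2. In bovine the sums of the endothelial, leukocyte and skeletal muscle lists lay above both mouse values and that of the erythroid list below them.

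Of all miRNA tested, 15.4% were called higher and 12.4% lower in AGO2, and 29.5% and 25.9% in bovine. The calls within these lists are given beside those shares. In the edgeR test of AGO2 against mouse, 0 of 4 fibroblast and smooth muscle and 0 of 5 leukocyte miRNA were called. Of the 3 erythroid miRNA, miR-144-3p was called higher, of the 2 skeletal muscle miRNA tested miR-1a-3p was called lower, and of the 2 endothelial miRNA 1 was called higher and 1 lower. In bovine against mouse, 0 of 3 fibroblast and smooth muscle miRNA were called, 1 of 2 erythroid miRNA (miR-144-3p) was lower, and of 5 leukocyte miRNA 2 were higher and 1 lower. No endothelial or skeletal muscle miRNA entered that test. The endothelial miRNA and miR-1a-3p have other names in bovine, miR-126 and miR-1, and so were not matched. miR-133a-3p and miR-206-3p were under 100 RPM. The part of these cells in the differences of the members was not tested.

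In the comparison of bovine with mouse, miR-205 was the member that differed. The edgeR test covered 139 miRNA matched by name and arm, of which 41 (29.5%) were called higher and 36 (25.9%) lower in bovine, and 84 had an unadjusted p under 0.05. Of the 3 members tested, 1 was called higher and 0 lower. miR-184-3p was matched but was under 100 RPM.

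miR-205-5p was 5.04-fold higher in bovine, with a log2 fold change of 2.33 ± 0.33 (SE) and an adjusted p of 0.00243 by edgeR. It was called in all 9 alternatives, between 1.86 and 2.57. The median log2 fold change of all 139 was 0.21, and 22 of them had a higher one. Its listed sequence was the same in the 2 species, while the ends of the reads counted on it were not analysed.

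For miR-31-5p the log2 fold change of bovine to mouse was 0.37 ± 0.33 (SE), with an adjusted p of 0.362 by edgeR, and it turned to −0.11 when miRNA of low counts were also included. For miR-375-3p it was −0.01 ± 0.46 (SE), with an adjusted p of 0.988. The value for miR-375-3p depended on the mouse library that was kept. It was 0.70 with a call as higher (adjusted p = 0.0148, edgeR) without mouse sample 1, and −0.48 with a call as lower (adjusted p = 0.0480) without mouse sample 2. It also turned to 0.18 without bovine sample 1 and to 0.11 with library totals alone. The bovine and mouse values did not overlap for 2 of the 3, miR-205-5p and miR-31-5p, as for 84.2% of the miRNA tested.

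The other epithelial miRNA were mostly lower in bovine, 6 of 8, with 0 higher and 2 not called and a median log2 fold change of −2.30. The log2 fold change was, for example, −2.87 ± 0.39 (SE, adjusted p = 0.00219 by edgeR) for miR-429-3p and −3.23 ± 0.46 (adjusted p = 0.00250) for miR-96-5p. miR-200c-3p, at 1.14 ± 0.57, was not called. The direction of miR-205-5p was thus not that of this list, although whether the members differ from it was not tested.

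**Figure D3:**
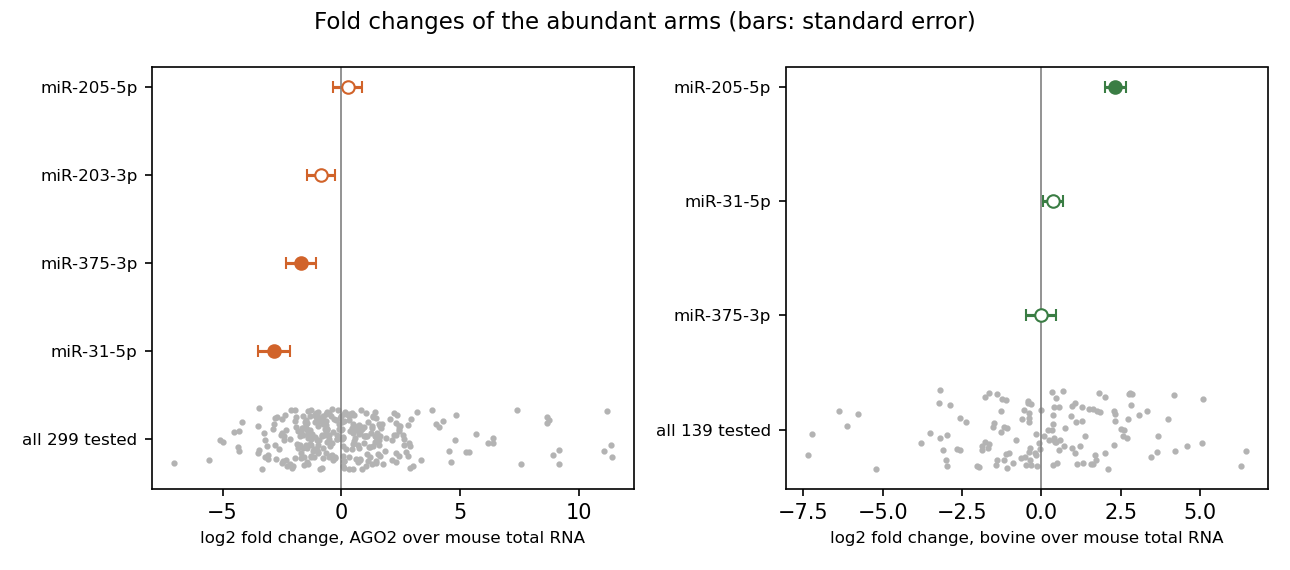
Log2 fold change of each tested guide with its standard error, for AGO2 over mouse (left) and bovine over mouse (right), filled where the edgeR adjusted p was under 0.05, above the values of all miRNA tested (grey, with a random vertical offset). miR-31-5p at −2.85 and miR-375-3p at −1.71 are filled on the left and miR-205-5p at 2.33 on the right.

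The passenger arms were rare in nearly all libraries. For miR-205 the 3′ arm made up 0.235% (exact 95% interval 0.143 to 0.362%) and 0.285% (0.159 to 0.469%) of the reads of both arms in mouse samples 1 and 2. In the AGO2 samples it was 0 of 3684 reads, which allows up to 0.0814%, and 0.110% (0.0301 to 0.283%). For miR-203, whose guide is on the 3′ arm, the 5′ arm made up 0.391% and 0.431% in mouse and 0.0320% and 0.303% in AGO2. In both families the passenger share of AGO2 sample 1 was below those of both mouse samples, while the intervals of AGO2 sample 2 overlapped with those of mouse.

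miR-31 departed from this. Its 3′ arm made up 0.0798% (exact 95% interval 0.0217 to 0.204%) and 0.473% (0.276 to 0.756%) of the reads in mouse, with 4 and 17 counts. In AGO2 sample 1 it had no count beside 307 of the guide, which allows up to 0.977%. In AGO2 sample 2 it had 28 counts beside 218, or 11.4% (7.70 to 16.0%). The high share thus came from a low guide, at 43.2 RPM, together with a passenger at 5.55 RPM, against 0.430 and 2.03 RPM in mouse. The 5′ arm of miR-375 showed the same library, with 20 counts (3.97 RPM) in AGO2 sample 2 and none in the other 3 libraries of the mouse list. Its share there was 1.00% (0.613 to 1.54%), whereas the shares that 0 counts allow were 0.0124% and 0.0336% in mouse and 0.126% in AGO2 sample 1. As the 2 AGO2 libraries do not agree for miR-31 and miR-375, no difference of AGO2 from mouse is drawn from these shares.

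Hairpins of known mouse miRNA were compared where both arms were listed by name and an arm reached 100 RPM or more. Among them, the median share of the less abundant arm was 0.734% and 0.667% in mouse and 0.318% and 0.745% in AGO2. Shares under 1% were found for 57.7% and 59.2% of the hairpins in mouse and 58.7% and 51.5% in AGO2. The low passenger shares of the members in mouse were therefore common among abundant hairpins with both arms listed.

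**Figure D4:**
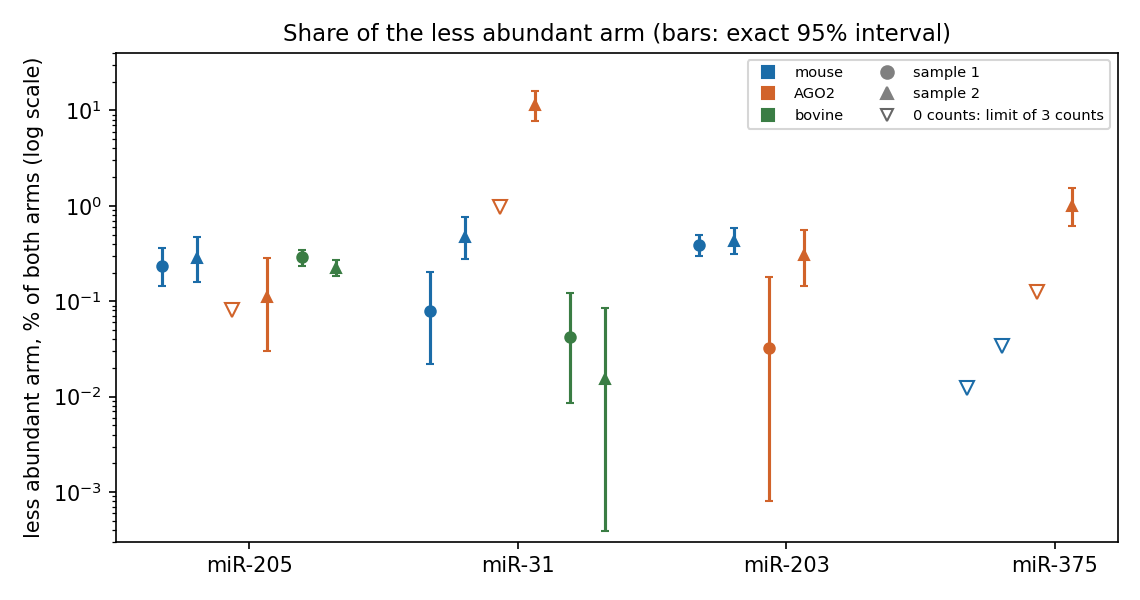
Share of the less abundant arm in the reads of both arms, in % on a log scale, for each family and library (circles, sample 1; triangles, sample 2; bars, exact 95% interval; open triangles, the share that 0 counts allow). Shares stay under 1% but for miR-31 at 11.4% and miR-375 at 1.00%, both in AGO2 sample 2.

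The miRNA whose levels followed those of a member most closely were found over the 6 libraries, by the Euclidean distance of log2(RPM + 1) centred on its mean, among matched miRNA with at least 100 RPM in a library. The points share libraries and totals, and the distances are descriptions only. The nearest to miR-205-5p were miR-151-3p (distance 0.41), miR-100-5p (0.60) and miR-139-5p (0.64). miR-151-3p was at 438 and 224 RPM in mouse, 391 and 240 RPM in AGO2 and 1745 and 1773 RPM in bovine, and so also stood highest in bovine with mouse and AGO2 alike. The nearest to miR-31-5p were miR-34a-5p (0.85), miR-185-5p (1.10) and miR-22-5p (1.15). miR-34a-5p, a miRNA induced by p53, was at 1587 and 1928 RPM in mouse, 221 and 96.4 RPM in AGO2 and 2630 and 2501 RPM in bovine. The nearest to miR-375-3p were let-7f-5p (0.67), miR-15a-5p (0.94) and miR-324-5p (1.09). let-7f-5p, of the let-7 family known from developmental timing, was at 24076 and 14592 RPM in mouse, 5211 and 2960 RPM in AGO2 and 18994 and 22440 RPM in bovine. miR-203-3p, with values in mouse and AGO2 alone here, was not entered.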

How the data were processed

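The authors tailed small RNA with poly(A), sequenced it on an Illumina instrument, removed poly-A stretches and kept reads of 17 to 28 nt. They counted reads per mature miRNA with the quantifier of miRDeep2, against miRBase v20 and predicted precursors, with GRCm38 and UMD3.1 named in the submitters' processing notes. The deposited values used are these raw counts, without normalisation. A second deposited column, a multiple of the count, and 2 lists of predictions were not used. Reads near-identical between mature miRNA cannot be separated here.

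RPM were computed over the sum of each library. The quasi-likelihood F test of edgeR 4.0.16 (R 4.3.3) was run after TMM normalisation, and p was adjusted by Benjamini-Hochberg over all miRNA tested. For AGO2 against mouse, the count minimum of the study's methods was applied in at least 1 of the 4 libraries. For bovine against mouse, 229 miRNA were matched by name and arm and those with 100 RPM in at least 1 library were tested. The standard error was the log2 fold change divided by the square root of F. Fits were tested on simulated data. With 2 libraries in a group, p-values rest on few samples. Sample numbers follow the order of deposit. All members are named, with the 3 nearest miRNA of each abundant guide. Members and lists were chosen with earlier results of these data known. Alternatives were DESeq2 1.42.0, its size factors, library totals, other filters, matching by sequence, TMM-scaled levels, a shorter seed and each library left out. A block by sample number in AGO2 against mouse was added after the data were seen. Python 3.11.15 with pandas 2.3.3, SciPy 1.17.1 and matplotlib 3.10.9 was used.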

Additional observations from a re-analysis of the deposited data

Results flagged for a closer look

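A line named with the human prefix, hsa-miR-205-3p, was listed in the bovine files and is not one of the members chosen by the mouse and bovine prefixes. Its sequence carries the seed of the mouse 3′ arm of miR-205.
hsa-miR-205-3p: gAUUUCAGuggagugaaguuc
mmu-miR-205-3p: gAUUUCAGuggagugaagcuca

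It reached 11.8 RPM (111 counts) in bovine sample 1 and 9.89 RPM (105 counts) in bovine sample 2, above the 0.319 and 0.283 RPM that a count of 0 allows. Set against bta-miR-205, it made up 0.287% (exact 95% interval 0.237 to 0.346%) and 0.223% (0.182 to 0.270%) of the reads of both arms, beside 0.235% and 0.285% in mouse. hsa-miR-31-3p had 3 counts and 1 count in the bovine samples, or 0.0419% and 0.0153% of the reads of both arms.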

How the results depend on the processing

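Numbers 1 and 2 are given to mouse and AGO2 samples by the study without a statement that they mark the same mouse, and differences of sample 1 from sample 2 correlated between mouse and AGO2 with r = 0.282 across 299 miRNA, which are not independent. With the sample number as a replicate block, added after the data were seen, 60 miRNA were called higher and 61 lower in AGO2, and 2 members were lower, miR-31-5p (−2.89, adjusted p = 0.00263 by edgeR) and miR-375-3p (−1.61, 0.0120). Of 67 log2 fold changes of members under the alternatives, 57 kept their direction and their side of the threshold. For miR-375-3p in AGO2 the call was lost with library totals alone (−1.87, adjusted p = 0.0568 by edgeR), without mouse sample 1 (−0.99, 0.432), without AGO2 sample 1 (−1.67, 0.158) and without AGO2 sample 2 (−1.46, 0.242). The direction reversed in bovine for miR-31-5p without a filter (−0.11) and for miR-375-3p with library totals (0.11), without mouse sample 1 (0.70) and without bovine sample 1 (0.18), beside −0.48 without mouse sample 2. Members called lower in AGO2 were 1 with library totals and 0 to 2 with a library left out, and in bovine 1 to 2 were called higher and 0 to 1 lower. Without a filter 29 of 1750 lines were called higher in AGO2 and 69 of 229 lower in bovine. These counts are not like those of the filtered tests, which covered 299 and 139 miRNA. The median log2 fold change of AGO2 over mouse was 2.82 without the filter. With a library left out, calls in AGO2 numbered 28 to 65 higher and 22 to 41 lower, and in bovine 27 to 59 higher and 19 to 49 lower. DESeq2 called 69 higher and 48 lower in AGO2, and 43 and 43 in bovine. Where 1 library was left in a group, it was assumed to vary like the other group. The 22 mean levels stayed within the SD with TMM factors, and 21 of 22 sums per seed with the shorter seed. Leaving out 1 of 2 libraries returns the value of the other, so it says nothing of the stability of levels and arm shares. Depth limits miR-184 and most passenger arms. The causes of these changes were not tested.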
